A study of Mus musculus with 18 samples.

Results

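Lmo2, Pcdh17, Bcl6b, Pecam1, Cdh5, Kdr, Flt1, Tie1, Tek and Thbd are genes expressed by the endothelial cells that line blood vessels, and they are 10 of the 23457 genes in the count table. All 10 passed the filter on low counts, as did 12281 genes in the whole table, which were tested. Lmo2 and Pcdh17 were selected on measured values, namely their call in PLCβ1b hearts against blank hearts at a false discovery rate (FDR) below 0.1. Bcl6b was picked with its values known, and the other 7 genes were chosen as canonical endothelial markers. The question for each comparison was whether the amount or the state of endothelium differed among the 3 vector groups.

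RNA depleted of ribosomal RNA was sequenced from 18 hearts of male C57BL/6 mice aged 17 weeks, with 6 hearts in each group. All mice carried a recombinant adeno-associated virus (rAAV6). One group had the vector for the splice variant PLCβ1b, another had the vector for the splice variant PLCβ1a, and the control group had a blank vector that holds a promoter but makes no protein. The labels call the tissue heart, biventricle, whereas the methods of the study name the left ventricle, and the promoter and the cells that took up the virus were not named in the sources used here. Library numbers 1 to 6 were blank, 7 to 12 were PLCβ1a and 13 to 18 were PLCβ1b, so library number and group cannot be told apart. Mouse numbers ran from 26 to 36 in blank, from 7 to 21 in PLCβ1a and from 4 to 17 in PLCβ1b hearts. A difference of either PLC group from blank thus cannot be told apart from mouse number, while the numbers of the PLC groups interleave. Both comparisons with blank used the same 6 blank hearts.

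Endothelium forms the inner wall of every vessel, and in the heart its capillaries run beside almost every cardiomyocyte. Its growth and survival depend on vascular endothelial growth factor (VEGF), read by the receptors Kdr and Flt1, and on angiopoietins, read by the receptor Tek with its partner Tie1. Cdh5 and Pecam1 hold neighbouring endothelial cells together, and Thbd on their surface binds thrombin and restrains clotting. Lmo2 is a LIM-only protein that bridges transcription factors in blood and vessel development, Bcl6b is a transcriptional repressor related to Bcl6, and Pcdh17 is a protocadherin, an adhesion protein best studied in neurons. Phospholipase Cβ1, which the vectors add, splits a membrane phosphoinositide into inositol trisphosphate and diacylglycerol.

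Each heart had between 13246339 and 24155465 counted read pairs (median 18598693). Mitochondrially encoded genes took 69.1% ± 1.03 (SD, n = 6) of the counts in blank hearts, 68.6% ± 1.13 (SD, n = 6) in PLCβ1a hearts and 70.1% ± 1.13 (SD, n = 6) in PLCβ1b hearts, which left 3908354 to 7591558 counts for nuclear genes. Plcb1, the gene the vectors carry, checked the labels. Its level in FPKM, which scales read pairs to exon length and to the depth of the library, spanned 0.806 to 1.14 with the blank vector (median 0.986), 3.18 to 5.28 with PLCβ1a (median 3.69) and 4.16 to 13.2 with PLCβ1b (median 7.82). Every heart with a PLC vector lay above every blank heart, while the PLCβ1a and PLCβ1b ranges overlapped. Counts per gene do not separate the splice variants, so they do not check which of the pair a heart received.

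The 10 genes spanned a wide range of levels over the 18 hearts. Cdh5 had the highest mean at 22.4 ± 1.55 FPKM (SD, n = 18), followed by Pecam1 at 19.7 ± 1.73 FPKM and Kdr at 19.1 ± 1.87 FPKM. A middle group held Flt1 at 9.77 ± 0.904 FPKM, Tie1 at 9.26 ± 0.541 FPKM, Thbd at 8.24 ± 0.982 FPKM and Tek at 7.29 ± 0.544 FPKM. Lmo2 at 4.81 ± 0.692 FPKM and Bcl6b at 4.36 ± 0.889 FPKM came next, and Pcdh17 was lowest at 0.648 ± 0.108 FPKM. Neighbours in this order had overlapping ranges except Kdr above Flt1 and Bcl6b above Pcdh17. Of the genes in the FPKM table, 95.7% had a mean below that of Cdh5 and 53.8% a mean below that of Pcdh17. Behind the lower levels stood 73 to 184 counts a heart for Lmo2, 57 to 147 for Pcdh17 and 149 to 480 for Bcl6b, against 1108 to 2422 for Kdr. All 10 genes were detected in every heart, which in bulk RNA does not show which cells made it. No exon of the 10 genes overlapped an exon of another gene on either strand in the deposited mm10 annotation.

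**Figure D1:**
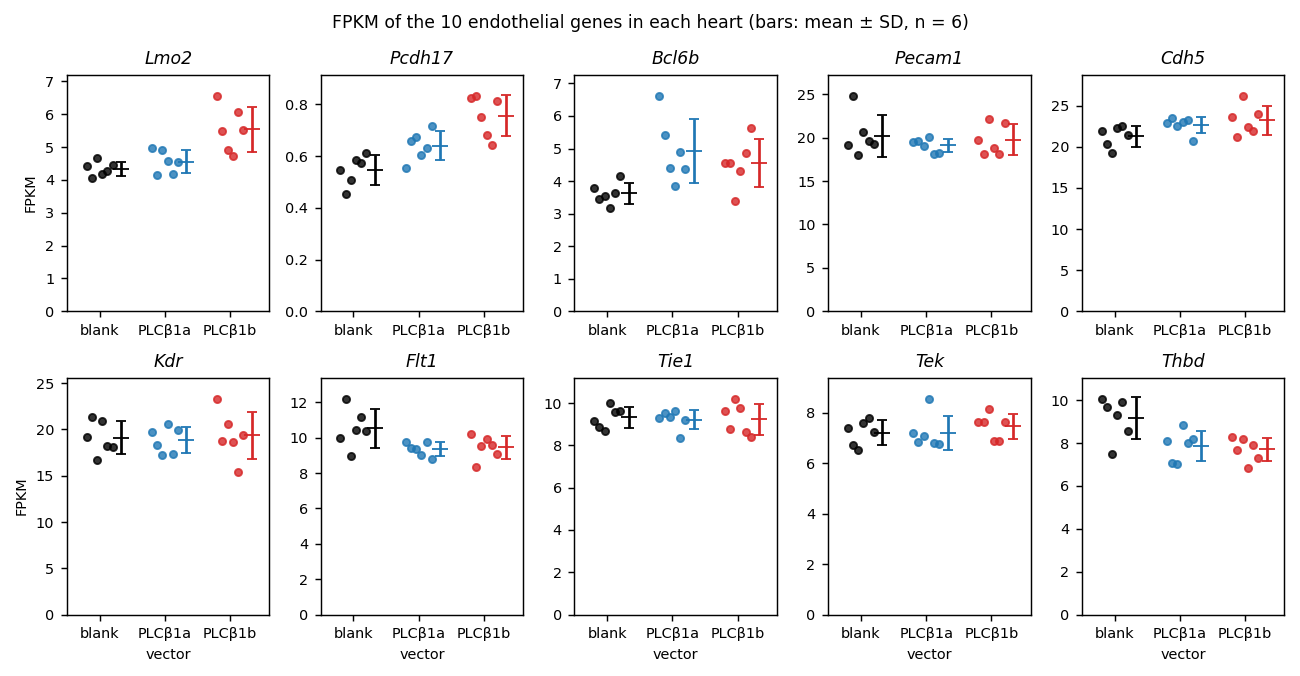
Level of each of the 10 genes (vertical axis, FPKM) in every heart of the blank, PLCβ1a and PLCβ1b groups (points), with the mean and SD of 6 hearts beside them. Pcdh17 runs from 0.455 to 0.611 FPKM in blank hearts and from 0.641 to 0.832 FPKM in PLCβ1b hearts, while the ranges of Pecam1, Kdr, Tie1 and Tek overlap in all groups.

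Lmo2 (chr2:103957995-103981878, mm10, plus strand) was higher in PLCβ1b hearts, which is how it was chosen. Its FPKM spanned 4.07 to 4.66 with the blank vector (median 4.35), 4.13 to 4.96 with PLCβ1a (median 4.56) and 4.72 to 6.55 with PLCβ1b (median 5.50). On the FPKM scale all 6 PLCβ1b hearts lay above all blank hearts. On the scale of counts adjusted to TMM-scaled library size but not to exon length (CPM), 5 of 6 did. The group means were 4.34 ± 0.214 FPKM for blank, 4.55 ± 0.346 FPKM for PLCβ1a and 5.54 ± 0.686 FPKM for PLCβ1b (SD, n = 6 each). By edgeR the log2 fold change of Lmo2 in PLCβ1b against blank was 0.37 (SE 0.0809), a 1.30-fold difference with an FDR of 0.0989, the value that selected it. The same fit gave Lmo2 a log2 fold change of 0.13 (SE 0.0830) in PLCβ1a against blank and 0.24 (SE 0.0791) in PLCβ1b against PLCβ1a. With limma on log2 FPKM the value in PLCβ1a against blank was 0.065 and 0.054 at pseudocounts of 0.1 and 1. The call of Lmo2 held in 10 of 27 alternatives, and with mitochondrial genes left out its log2 fold change was 0.37. It was lost with only the groups compared (edgeR FDR 0.202, log2 fold change 0.37). With limma at both pseudocounts it was also lost (FDR 0.272 and 0.241, log2 fold changes 0.34 and 0.29).

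Pcdh17 (chr14:84443563-84537060, mm10, plus strand) had the largest difference of the 10 genes in PLCβ1b against blank, again by the choice itself. Its FPKM spanned 0.455 to 0.611 with the blank vector (median 0.561), 0.555 to 0.717 with PLCβ1a (median 0.644) and 0.641 to 0.832 with PLCβ1b (median 0.782). The PLCβ1b and blank hearts did not overlap, and 4 of 6 PLCβ1a hearts lay above all blank hearts. Means were 0.547 ± 0.0573, 0.640 ± 0.0566 and 0.757 ± 0.0809 FPKM in blank, PLCβ1a and PLCβ1b hearts (SD, n = 6 each). The edgeR log2 fold change of Pcdh17 in PLCβ1b against blank was 0.46 (SE 0.0890), or 1.38-fold, at the selecting FDR of 0.0420. It was 0.23 (SE 0.0914) in PLCβ1a against blank and 0.23 (SE 0.0862) in PLCβ1b against PLCβ1a. The call of Pcdh17 held in 20 of 27 alternatives and was lost with limma (FDR 0.329 and 0.241 at both pseudocounts).

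Among the 10 genes, edgeR called 2 in PLCβ1b against blank, where it called 0.0977% of the 12281 genes tested, and since this comparison chose Lmo2 and Pcdh17, nothing is read from that count. It called 0 of 10 in PLCβ1a against blank, where 0.0814% of all genes were called, and 0 of 10 in PLCβ1b against PLCβ1a, where 0.00814% were. With both PLC groups pooled against blank it called 1 of 10, Pcdh17, beside 0.195% of all genes, and that comparison holds the hearts that chose the gene. Groups that did not overlap in CPM were found for 1 of 10 genes, Pcdh17, in PLCβ1b against blank (0.48% of all genes), for 0 of 10 in PLCβ1a against blank (0.594%) and for 0 of 10 in PLCβ1b against PLCβ1a (0.179%). Just inside the threshold in PLCβ1b against blank stood Lmo2 with an FDR of 0.0989, and the next of the 10 outside it was Thbd with an FDR of 0.305.

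Promoter sequences from RefSeq (GRCm38.p6) were found for 5 of 10 genes, Pcdh17, Kdr, Flt1, Tie1 and Tek. Lmo2, Bcl6b, Pecam1, Cdh5 and Thbd had no entry in the set of promoters used here. Those of Pcdh17 (chr14:84443313-84443562, GRCm38.p6, plus strand) and Tie1 (chr4:118489850-118490099, GRCm38.p6, minus strand) are printed, since one belongs to a gene that was higher with PLCβ1b and the other to a canonical marker whose level lay close to blank. Each shows the 250 bases before the annotated start, 5′ to 3′, with matches in capitals.
Pcdh17: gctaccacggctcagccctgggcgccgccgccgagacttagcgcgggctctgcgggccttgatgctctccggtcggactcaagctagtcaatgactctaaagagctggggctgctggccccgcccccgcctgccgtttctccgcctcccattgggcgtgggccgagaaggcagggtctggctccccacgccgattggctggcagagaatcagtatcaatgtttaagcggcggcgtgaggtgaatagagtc
Tie1: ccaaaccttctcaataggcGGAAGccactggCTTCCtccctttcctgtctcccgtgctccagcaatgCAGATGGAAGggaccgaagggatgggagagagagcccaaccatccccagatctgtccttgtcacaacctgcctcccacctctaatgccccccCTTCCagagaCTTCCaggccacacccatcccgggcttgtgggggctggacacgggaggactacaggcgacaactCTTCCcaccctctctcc
Both strands were searched for 3 motifs among the 32851 mouse promoters of this length. The core of sites for ETS factors, GGAAG, which reads CTTCC on the opposite strand, occurs in 64.1% of them. The core for GATA factors, GATAA, which reads TTATC on the opposite strand, occurs in 22.6%. The E-box searched was CAGNTG, in which N may be any base. It reads CANCTG on the opposite strand and occurs in 44.8%. The Tie1 window held 6 ETS matches and 1 E-box, which overlaps one of the ETS matches, and the Flt1 window held 3 ETS matches. Kdr had 1 ETS match and 1 E-box, and neither Pcdh17, whose window is 64.8% G and C, nor Tek had a match. These matches describe letters only.

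Bcl6b (chr11:70224127-70229798, mm10, minus strand) was higher than blank in most hearts of both PLC groups. Its FPKM spanned 3.17 to 4.14 with the blank vector (median 3.60), 3.85 to 6.61 with PLCβ1a (median 4.64) and 3.38 to 5.64 with PLCβ1b (median 4.55). In each PLC group 5 of 6 hearts lay above all blank hearts, and the spread was wider than in blank, with SDs of 2.80 and 2.58 CPM against 0.989 CPM (n = 6 each). The edgeR log2 fold change of Bcl6b was 0.45 (SE 0.114), or 1.37-fold, in PLCβ1a against blank and 0.32 (SE 0.115), or 1.25-fold, in PLCβ1b against blank, a description with no test since the gene was picked with these values known. Between the PLC groups the log2 fold change was -0.13 (SE 0.111). It ran from -0.21 without PLCβ1b heart 17 to -0.035 without PLCβ1a heart 7.

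**Figure D2:**
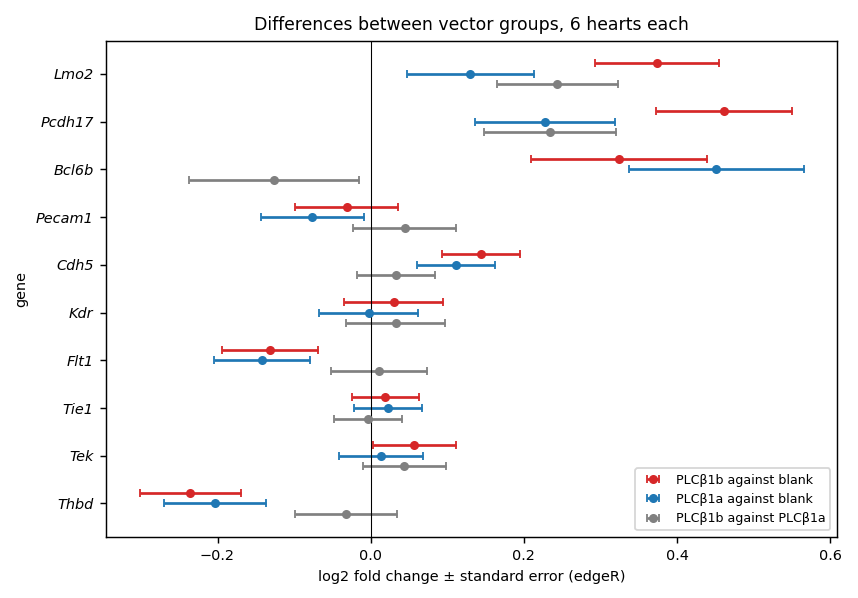
Log2 fold change from edgeR with its standard error (horizontal axis) for each gene in PLCβ1b against blank, PLCβ1a against blank and PLCβ1b against PLCβ1a, 6 hearts a group. Lmo2 and Pcdh17 stand highest in PLCβ1b against blank at 0.37 and 0.46, Bcl6b is at 0.32 and 0.45 against blank, and Thbd lies below 0 at -0.24 and -0.20.

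The 7 canonical markers did not pass the threshold in edgeR, which called 0 of 7 in each of the 3 pairwise comparisons and in both PLC groups against blank. An unadjusted p under 0.05 was reached by 3 of 7 (Cdh5, Flt1 and Thbd) in PLCβ1b against blank, by 3 of 7 in PLCβ1a against blank and by 0 of 7 in PLCβ1b against PLCβ1a, beside 912, 1082 and 560 of the 12281 genes tested. DESeq2 and limma also called 0 of 7 in these 3 comparisons. In both PLC groups against blank DESeq2 and a robust edgeR fit each called 1 of 7, Thbd, and limma called 0, beside 55 of 11087, 40 of 12281 and 6 of 12240 genes. The median log2 fold change over the 7 was 0.019 in PLCβ1b against blank and -0.0026 in PLCβ1a against blank, beside -0.00089 and -0.0018 over all genes tested. In bulk RNA, fewer endothelial cells and less RNA in each cell cannot be told apart.

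Thbd (chr2:148404471-148408188, mm10, minus strand), which binds thrombin, had the largest difference of the markers. Its FPKM spanned 7.49 to 10.04 with the blank vector (median 9.48), 7.002 to 8.84 with PLCβ1a (median 8.04) and 6.85 to 8.30 with PLCβ1b (median 7.78). Every heart of both PLC groups had a CPM at or below the blank median, yet the groups overlapped. Means were 9.16 ± 0.973 FPKM for blank, 7.86 ± 0.703 FPKM for PLCβ1a and 7.70 ± 0.545 FPKM for PLCβ1b (SD, n = 6 each). In edgeR the log2 fold change of Thbd was -0.24 (SE 0.0665, FDR 0.305, above the blank median in 0 of 6 hearts) in PLCβ1b against blank. It was -0.20 (SE 0.0665, FDR 0.327, above the blank median in 0 of 6 hearts) in PLCβ1a against blank, and -0.22 (SE 0.0573, FDR 0.149) with both PLC groups together. The combined comparison passed the threshold with DESeq2 (FDR 0.0819), with no filter on low counts (edgeR FDR 0.0742), with a robust edgeR fit chosen after seeing the data (FDR 0.0971) and without blank heart 32 (edgeR FDR 0.0731). Its FDR ran from 0.0731 to 0.348 over 26 alternatives.

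Neither adhesion marker passed the threshold. Cdh5, the cadherin of endothelial junctions, spanned 19.3 to 22.5 FPKM with the blank vector (median 21.7), 20.7 to 23.5 FPKM with PLCβ1a (median 23.0) and 21.2 to 26.2 FPKM with PLCβ1b (median 23.0). Its CPM was above the blank median in 6 of 6 PLCβ1b hearts, with an edgeR log2 fold change of 0.14 (SE 0.0511, FDR 0.488), and in 5 of 6 PLCβ1a hearts, at 0.11 (SE 0.0512, FDR 0.530). Pecam1, another junction protein, spanned 18.01 to 24.8 FPKM with the blank vector (median 19.4), 18.1 to 20.1 FPKM with PLCβ1a (median 19.3) and 18.1 to 22.1 FPKM with PLCβ1b (median 19.3). The medians of Pecam1 were thus almost level. Its edgeR log2 fold change was -0.031 (SE 0.0672, FDR 0.940) in PLCβ1b against blank, above the blank median in 2 of 6 hearts, and it turned to 0.049 without blank heart 30. Against the same hearts PLCβ1a stood at -0.076 (SE 0.0674, FDR 0.787), above the blank median in 3 of 6, and at 0.0043 without that heart.

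The growth factor receptors did not pass the threshold either. Flt1, a VEGF receptor that also acts as a decoy, spanned 8.96 to 12.2 FPKM with the blank vector (median 10.4), 8.80 to 9.77 FPKM with PLCβ1a (median 9.38) and 8.37 to 10.2 FPKM with PLCβ1b (median 9.56). Only 1 of 6 hearts in each PLC group had a CPM above the blank median, with an edgeR log2 fold change of -0.13 (SE 0.0622, FDR 0.662) for PLCβ1b and -0.14 (SE 0.0623, FDR 0.504) for PLCβ1a. Without blank heart 30 these log2 fold changes were -0.074 and -0.084. Kdr, the main signalling receptor for VEGF, had means of 19.1 ± 1.77 FPKM with the blank vector, 18.9 ± 1.42 FPKM with PLCβ1a and 19.4 ± 2.57 FPKM with PLCβ1b (SD, n = 6 each). Tie1 had 9.32 ± 0.509, 9.22 ± 0.460 and 9.23 ± 0.720 FPKM in the same order (SD, n = 6 each). Tek had 7.20 ± 0.492, 7.19 ± 0.677 and 7.47 ± 0.497 FPKM (SD, n = 6 each). For Kdr, Tie1 and Tek the means differed by less than the SD within groups. In edgeR their log2 fold changes against blank were 0.030 and -0.0026 for Kdr, 0.019 and 0.022 for Tie1, and 0.057 and 0.013 for Tek in PLCβ1b and PLCβ1a, with FDRs of 0.849 or more. All but that of Tek in PLCβ1b changed sign under some alternative. In PLCβ1b against PLCβ1a the log2 fold changes of all 7 markers ran from -0.032 to 0.045, with the lowest FDR of edgeR at 0.9999.

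A separate index of endothelial RNA was built from 25 other endothelial genes, among them Egfl7, Esam, Emcn, Erg and Robo4, none of them one of the 10. It is the mean log2 CPM over these genes in a heart. The index was 3.99 ± 0.0480 in blank hearts (3.94 to 4.06), 3.98 ± 0.0491 in PLCβ1a hearts (3.93 to 4.04) and 3.997 ± 0.0511 in PLCβ1b hearts (3.91 to 4.05; SD, n = 6 each). The ranges overlapped almost fully. PLCβ1b minus blank was 0.0091 on the log2 scale (SE 0.0286, exact two-sided permutation p = 0.755, adjusted p = 0.755 over 3 comparisons), with 4 of 6 hearts above the blank median. PLCβ1a minus blank was -0.0096 (SE 0.0280, exact permutation p = 0.732, adjusted p = 0.755), with 3 of 6 hearts above the blank median. PLCβ1b minus PLCβ1a was 0.019 (SE 0.0289, exact permutation p = 0.515, adjusted p = 0.755), with 4 of 6 hearts above the PLCβ1a median. The smallest p this exact test can give is 0.0022. The genes of the index were chosen with earlier results of these data known, so these p-values are a description. A p above the threshold does not show that the groups were equal.

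Within the groups, the CPM of Pecam1, Cdh5 and Flt1 was related to the index, while the other 7 genes, among them Lmo2, Pcdh17, Bcl6b and the markers Kdr, Tie1, Tek and Thbd, did not pass the test. Each gene's log2 CPM was correlated with the index over 18 hearts after group means were removed, and 10 relations were tested by permutation within groups. Pecam1 had r = 0.732 (permutation p = 2.4e-04, adjusted p = 0.0024) and rho = 0.773 (permutation p = 3.2e-04, adjusted p = 0.0032), with r = 0.677 (adjusted p = 0.0209) and rho = 0.653 (adjusted p = 0.0518, outside the threshold of 0.05) without PLCβ1a heart 21 and PLCβ1b heart 6, the pair farthest from the median index. On the FPKM scale its r was 0.531 (permutation, adjusted p = 0.054), also outside it. Cdh5 had r = 0.671 (permutation p = 0.00359, adjusted p = 0.0179) and rho = 0.692 (permutation p = 0.00372, adjusted p = 0.0186). Flt1 had r = 0.598 (permutation p = 0.0142, adjusted p = 0.0473) and rho = 0.488 (permutation p = 0.0551, adjusted p = 0.166). The relations of Cdh5 (r = 0.502, permutation, adjusted p = 0.147) and Flt1 (r = 0.438, permutation, adjusted p = 0.244) did not pass without that pair of hearts. That of Cdh5 also missed the threshold without PLCβ1a heart 21 (r = 0.635, permutation, adjusted p = 0.0609) or PLCβ1b heart 6 (r = 0.588, permutation, adjusted p = 0.0895) alone, and that of Flt1 was lost in 11 of 18 cases with a single heart left out and was lowest (r = 0.485) without blank heart 30. Which genes passed depended on the scale. With FPKM in place of CPM, Cdh5 passed (r = 0.617, permutation, adjusted p = 0.0318), Flt1 did not (adjusted p = 0.117), and Kdr (adjusted p = 0.0365), Tie1 (adjusted p = 0.0081) and Tek (adjusted p = 0.0318) did.

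Lmo2 had r = -0.338 (permutation p = 0.212, adjusted p = 0.302) and rho = -0.356 (permutation p = 0.167, adjusted p = 0.217) with the index. Pcdh17 had r = -0.297 (permutation p = 0.263, adjusted p = 0.312) and rho = -0.284 (permutation p = 0.284, adjusted p = 0.316). For Bcl6b r was -0.0989 (permutation p = 0.716, adjusted p = 0.716) and rho was -0.0444 (permutation p = 0.872, adjusted p = 0.872). On the CPM scale these 3 values lay below 0 and those of the 7 markers above 0, from 0.287 for Kdr to 0.732 for Pecam1, but signs and sizes moved with the setting. Pcdh17 was at 0.0656 on the FPKM scale and ran from -0.553 to -0.143 with 1 heart left out, Bcl6b was at 0.0659 without PLCβ1b heart 8, and Kdr was at 0.058 without blank heart 30. A difference between the 3 and the 7 was not tested. Without PLCβ1a heart 21 and PLCβ1b heart 6, r was -0.487 for Lmo2, -0.139 for Pcdh17 and -0.204 for Bcl6b, and none passed the threshold.

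**Figure D3:**
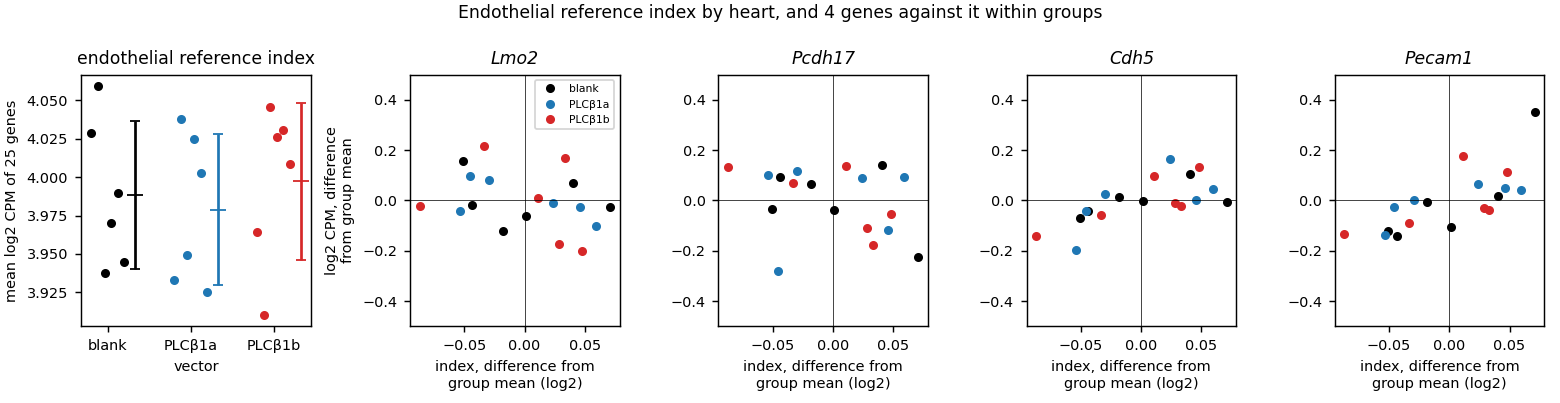
First panel, mean log2 CPM of 25 endothelial genes in each heart (points) with the mean and SD of 6 hearts, and further panels, log2 CPM of Lmo2, Pcdh17, Cdh5 and Pecam1 against that index, each as its difference from the group mean, over 18 hearts. The index overlaps between groups, Pecam1 climbs with it (r = 0.732), and Lmo2 does not (r = -0.338).

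The genes whose pattern was most like each selected gene, by correlation of log2 CPM over 18 hearts after group means were removed, are given with r and as a description. Lmo2 was nearest to Suz12 (r = 0.775, rho = 0.808), a subunit of a histone methyltransferase complex, then to Gm16516 (r = 0.750, rho = 0.825) and Tgfb1i1 (r = 0.750, rho = 0.789). For Pcdh17 the nearest genes were Fbxl6 (r = 0.836, rho = 0.804), Thsd4 (r = 0.832, rho = 0.612) and Mrpl46 (r = 0.804, rho = 0.723). Bcl6b was nearest to Lrrfip1 (r = 0.795, rho = 0.614), Ecm2 (r = 0.791, rho = 0.711) and Pdgfb (r = 0.787, rho = 0.732), which encodes a platelet-derived growth factor chain.

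Beyond the 10 genes, 16 lists with 154 genes were examined, of which 136 genes were tested. In edgeR 0 of these 136 genes were called in PLCβ1b against blank, 0 in PLCβ1a against blank and 0 in PLCβ1b against PLCβ1a, where it called 12, 10 and 1 of all 12281 genes. An unadjusted p under 0.05 was reached by 14, 22 and 12 of the 136 (10.3%, 16.2% and 8.82%), beside 7.43%, 8.81% and 4.56% of all genes tested, a description since the lists were chosen with results known. DESeq2 called 1, 1 and 0 of them in that order, beside 24, 33 and 1 of all genes. It gave an FDR to 12278 genes, 136 of the lists among them, in both comparisons that hold PLCβ1b, but to 5613 genes and 93 of the lists in PLCβ1a against blank, so these counts do not share a base. Limma called 0 in each, of 5, 6 and 0, and the robust edgeR fit 1, 0 and 0, of 12, 17 and 0. With both PLC groups together against blank edgeR called 1 of the 136, Prox1, a transcription factor of lymphatic endothelium that cardiomyocytes also express, and 24 of all 12281 genes (0.195%). DESeq2 and the robust fit each called 2 of the lists in that comparison, Prox1 and Lum, of 55 and 40 over all genes, and limma called 0 of 6.

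The 25 genes of the index had 14 log2 fold changes above 0 and 11 below in PLCβ1b against blank, with a median of 0.0042, and a median of -0.016 in PLCβ1a against blank. Cd93, a surface receptor of endothelium, had the lowest p of those above 0, with an edgeR log2 fold change of 0.17 (SE 0.0633, FDR 0.542) in PLCβ1b against blank. S1pr1, the sphingosine phosphate receptor, was at -0.16 (SE 0.103, FDR 0.770), and Egfl7, the most abundant at 21.7 FPKM over 18 hearts, was at 0.048 (SE 0.0535, FDR 0.873). Cldn5, a tight junction protein named after its values were seen, stood farthest out in PLCβ1a against blank at 0.70 (SE 0.196, FDR 0.253), and at 0.26 (SE 0.206, FDR 0.811) in PLCβ1b. The summed CPM of the list was 647 ± 24.8 with the blank vector, 656 ± 27.6 with PLCβ1a and 659 ± 26.2 with PLCβ1b (SD, n = 6 each), with no gene of it at 0.

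Among the known partners and relatives of Lmo2, 13 of 14 were tested, with 8 log2 fold changes above 0 and 5 below in PLCβ1b against blank and a median of 0.031 (0.023 in PLCβ1a against blank). Tcf4, an E protein that binds E-boxes, was most abundant at 11.6 FPKM and had an edgeR log2 fold change of 0.091 (SE 0.0359, FDR 0.567) in PLCβ1b against blank. Ssbp2, a cofactor of Ldb1, was at -0.13 (SE 0.0668, FDR 0.696). Lmo3 had 3 counts over all hearts and was not tested.

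Of the non-clustered protocadherins other than Pcdh17, 7 of 11 were tested, with 4 above 0, 3 below and a median log2 fold change of 0.11 in PLCβ1b against blank (0.019 in PLCβ1a). Pcdh9 was at 0.29 (SE 0.143, edgeR FDR 0.674), from 0.456 ± 0.125 FPKM in blank to 0.537 ± 0.114 FPKM in PLCβ1b hearts (SD, n = 6 each). Pcdh7, which held 75.8% of the summed CPM of this list, was at -0.034 (SE 0.0366, edgeR FDR 0.869). In the list of Bcl6 and its corepressors all 5 genes were tested, with 4 above 0 and 1 below and a median of 0.11 (0.0056 in PLCβ1a). Bcor was at 0.11 (SE 0.0738, edgeR FDR 0.770), Hdac3 at -0.0090 (SE 0.0703, edgeR FDR 0.989) and Ncor1, the most abundant, at 0.042 (SE 0.0434, edgeR FDR 0.861).

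The list of VEGF and angiopoietin ligands and coreceptors also held the receptor Flt4. In PLCβ1b against blank the 10 tested genes of this list gave 6 log2 fold changes above 0 and 4 below, with a median of 0.025 (-0.0089 in PLCβ1a). Pgf, a ligand of Flt1, was lower in level, at 1.52 ± 0.285 FPKM with the blank vector, 1.16 ± 0.245 FPKM with PLCβ1a and 1.097 ± 0.203 FPKM with PLCβ1b (SD, n = 6 each), with log2 fold changes of -0.39 (SE 0.153, edgeR FDR 0.567) in PLCβ1b and -0.36 (SE 0.153, edgeR FDR 0.484) in PLCβ1a. Nrp1, a VEGF coreceptor, was at 0.086 (SE 0.0560, edgeR FDR 0.765), and Vegfb, the most abundant ligand at 35.3 FPKM, was at 0.018 (SE 0.0448, edgeR FDR 0.946). Arterial and Notch genes numbered 11, with 4 above 0 and 7 below and a median of -0.0069 in PLCβ1b against blank. Jag1, a Notch ligand, was at 0.21 (SE 0.0782, edgeR FDR 0.535) and Hey1, a Notch target, at -0.26 (SE 0.104, edgeR FDR 0.581). The receptor Notch1, most abundant of them at 3.57 FPKM, was at -0.0069 (SE 0.0471, edgeR FDR 0.986).

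Genes of the vessel types gave medians near 0 in PLCβ1b against blank. The 5 venous genes had a median log2 fold change of -0.024 with Vwf at 0.17 (SE 0.0739, edgeR FDR 0.617), Vcam1 at -0.16 (SE 0.103, edgeR FDR 0.764) and Ephb4 at -0.024 (SE 0.0605, edgeR FDR 0.949). The 9 capillary genes had a median of -0.046, and 75.1% of their CPM was Cd36, the fatty acid transporter, at 0.00034 (SE 0.0385, edgeR FDR 0.9997). Aqp7, a glycerol channel, was at 0.28 (SE 0.0917, edgeR FDR 0.407) and Ly6c1 at -0.14 (SE 0.0829, edgeR FDR 0.741). The 4 tested endocardial genes of 5 had a median of -0.012, with Nfatc1 at 0.067 (SE 0.0794, edgeR FDR 0.885) and Plvap at -0.19 (SE 0.162, edgeR FDR 0.837). In PLCβ1a against blank their median was -0.16, with Cytl1 at -0.31 (SE 0.129, edgeR FDR 0.467). Shear-responsive and anticoagulant genes, 5 of 6 tested, had a median of 0.041, with Tfpi at -0.097 (SE 0.0674, edgeR FDR 0.783).

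Prox1 was the gene of the lists that came nearest to the threshold in PLCβ1b against blank. Its level was 6.22 ± 0.590 FPKM with the blank vector, 7.20 ± 0.533 FPKM with PLCβ1a and 7.39 ± 0.664 FPKM with PLCβ1b (SD, n = 6 each). The edgeR log2 fold change was 0.28 (SE 0.0628, FDR 0.122) in PLCβ1b against blank, 0.24 (SE 0.0630, FDR 0.206) in PLCβ1a against blank and 0.26 (SE 0.0550, FDR 0.066) with both groups together, where Prox1 rose. DESeq2 called it in PLCβ1b against blank (FDR 0.0305) and in PLCβ1a against blank (FDR 0.0917). Of 5 lymphatic genes tested, 3 were above 0 in PLCβ1b against blank, with a median log2 fold change of 0.12 (0.056 in PLCβ1a). Lyve1, a lymphatic and macrophage receptor, was at -0.26 (SE 0.120, edgeR FDR 0.652) in PLCβ1b, and Ccl21a had a count of 0 in all 18 hearts. Its FPKM ran from 4.47 to 7.002, and all its exonic bases are shared with Gm1987 in the annotation, so the counts do not measure it.

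Markers of other cells were counted in the same way. All 8 fibroblast genes had a log2 fold change above 0 in PLCβ1b against blank, with a median of 0.11 (6 of 8 above 0 and a median of 0.055 in PLCβ1a), and their summed CPM was 771 ± 38.0 with the blank vector, 788 ± 32.8 with PLCβ1a and 801 ± 28.9 with PLCβ1b (SD, n = 6 each). None of these was called by edgeR in PLCβ1b against blank, where 2 of 8 had an unadjusted p under 0.05, nor by DESeq2 or limma. Over all genes tested in that comparison, 7.43% had such a p and the median log2 fold change was -0.00089. There Lum, a matrix proteoglycan, was at 0.23 (SE 0.0672, edgeR FDR 0.354) and Gsn, which held 44.9% of the sum, at 0.0098 (SE 0.0410, edgeR FDR 0.974). In both PLC groups against blank Lum had an edgeR log2 fold change of 0.23 (SE 0.0588, FDR 0.149) and was called by DESeq2 (FDR 0.0819) and by the robust edgeR fit (FDR 0.0971). Mural cells, which wrap the vessels, had 8 of 9 genes above 0 with a median of 0.054, with Pdgfrb at 0.17 (SE 0.0533, edgeR FDR 0.407) and Rgs5 at -0.035 (SE 0.0472, edgeR FDR 0.8998), and a summed CPM of 508 ± 13.7, 508 ± 23.2 and 523 ± 11.6 (SD, n = 6 each) in blank, PLCβ1a and PLCβ1b. The part of these cells in the levels of Lmo2, Pcdh17 and Bcl6b was not tested.

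Leukocyte genes, 8 of 11 tested, had a median log2 fold change of -0.0067 and a summed CPM of 109 ± 8.59 in blank and 106 ± 15.03 in PLCβ1b hearts (SD, n = 6 each), with Cd68 at 0.19 (SE 0.137, edgeR FDR 0.796), C1qa at -0.16 (SE 0.0868, edgeR FDR 0.726) and Lyz2 at -0.079 (SE 0.0967, edgeR FDR 0.888). Of 10 erythrocyte and platelet genes 3 were tested, with a median of 0.20 in PLCβ1b and 0.63 in PLCβ1a against blank. The haemoglobin genes Hba-a1, Hba-a2, Hbb-b1 and Hbb-b2 had a count of 0 in all 18 hearts but not an FPKM of 0. Hba-a1 and Hba-a2 share 99.5% and 98.8% of their exonic bases with each other in the deposited annotation, and Hbb-b1 and Hbb-b2 share 96.8% and 99.3%, so the counts do not measure them. Hba-a1 had 157 ± 32.2 FPKM with the blank vector, 201 ± 62.6 FPKM with PLCβ1a and 167 ± 28.3 FPKM with PLCβ1b (SD, n = 6 each), which were not tested. Alas2, the erythroid enzyme of haem synthesis, was at 0.63 (SE 0.162, edgeR FDR 0.186) in PLCβ1a against blank and 0.22 (SE 0.167, edgeR FDR 0.807) in PLCβ1b, and Pf4, a platelet gene, at -0.34 (SE 0.131, edgeR FDR 0.567) in PLCβ1b. The 9 cardiomyocyte genes had a median of -0.018 in PLCβ1b against blank, with Tnnt2 at 0.034 (SE 0.0415, edgeR FDR 0.888), Atp2a2 at -0.048 (SE 0.0404, edgeR FDR 0.828) and Myl2 at 0.0063 (SE 0.0441, edgeR FDR 0.987), and a summed CPM of 23008 ± 479 in blank and 22623 ± 377 in PLCβ1b hearts (SD, n = 6 each).

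**Figure D4:**
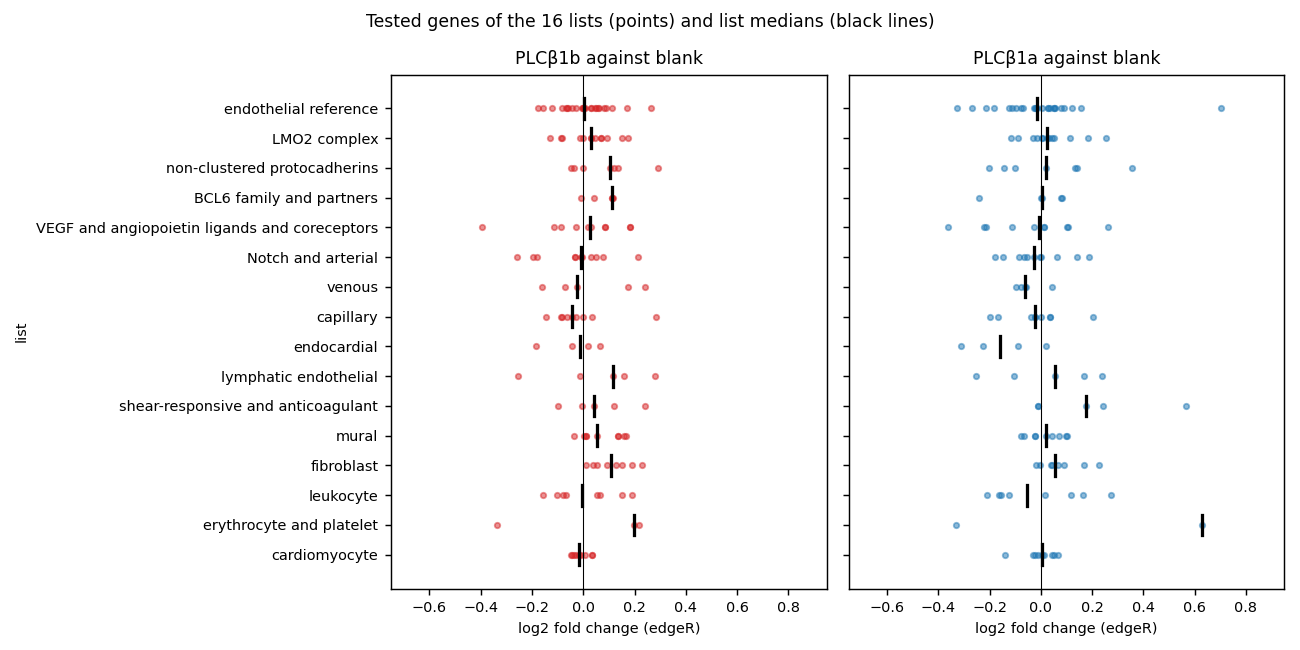
Log2 fold change from edgeR (horizontal axis) of each tested gene in 16 lists (points) in PLCβ1b against blank and in PLCβ1a against blank, with the list median as a black line. The fibroblast genes all lie above 0 in PLCβ1b against blank, and the median of the endothelial reference list lies at 0.0042 there.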

How the data were processed

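Ribosomal RNA-depleted total RNA of 18 mouse hearts was measured by paired-end, strand-specific sequencing. Per the labels and methods, the authors aligned reads to mm10 with TopHat2 2.0.10 and counted read pairs per gene with HTSeq, and they deposited these counts without scaling, 1 column per heart. The authors also deposited FPKM values, with replicates not pooled. Cufflinks 2.1 is named in the submitters' notes with no stated role, so the program behind the FPKM values is not known. The deposited annotation gave gene positions. The members and the lists were chosen with earlier results of these data known.

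TMM-scaled counts went into the quasi-likelihood F test of edgeR 4.0.16 (R 4.3.3) in 1 model of 3 groups, after a filter (minimum count 10, minimum total 15 and smallest group 6), with Benjamini-Hochberg adjustment over 12281 genes and an FDR threshold of 0.1. Both PLC groups against blank compares the mean of the pair with blank. Log2 CPM used a prior count of 2. The index was compared by exact two-sided permutation, adjusted over 3 comparisons, and relations by 100000 permutations within groups, adjusted over 10, each with a threshold of 0.05. No sample column was left unused. The fits and permutation tests were tested on simulated data. The differences and relations set there were larger than those of the 10 genes and the index, so sensitivity at these sizes was not tested.

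Named genes were all members, from each list any gene called in any of the comparisons, the lowest p in each direction in PLCβ1b against blank and the highest mean FPKM, and the 3 genes nearest to Lmo2, Pcdh17 and Bcl6b. Not every gene this rule names is printed. Alternatives were DESeq2 1.42.0, upper-quartile scaling, no filter, only the groups compared, mitochondrial genes left out, limma 3.58.1 on log2 FPKM with pseudocounts of 0.1 and 1, the index as a covariate, an FDR of 0.05, other forms of the index and the relations, and leaving out single hearts. A robust quasi-likelihood fit, and CPM for the check of hearts far from their group, were added after seeing the data. Python 3.11.15 with numpy 2.4.6, pandas 2.3.3 and scipy 1.17.1 computed the levels, and matplotlib 3.10.9 drew the figures.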

Additional observations from a re-analysis of the deposited data

Results flagged for a closer look

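Among 36 groups of 6 hearts checked for a heart far from the other hearts (10 genes in 3 groups, the index and the mitochondrial share), 3 held one. Chance flags about 1 in 20 groups. All lay in the PLCβ1a group. Cdh5 was lowest in PLCβ1a heart 21 at 20.7 FPKM, with the others at 22.5 to 23.5 FPKM. Tie1 was lowest in PLCβ1a heart 14 at 8.34 FPKM, with the others at 9.21 to 9.62 FPKM. Tek was highest in PLCβ1a heart 13 at 8.53 FPKM, with the others at 6.77 to 7.17 FPKM. The genes were checked in FPKM. In CPM, a scale chosen after seeing the data, none of these 3 hearts passed the same limit, and 1 of 30 groups held another. Pecam1 was highest in blank heart 30 at 72.3 CPM, with the others at 51.4 to 57.4 CPM.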

How the results depend on the processing

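No paired analysis was possible because mouse numbers are not shared between groups. Lmo2 in PLCβ1b against blank was above 0 in all 27 alternatives and called in 10, with an edgeR FDR of 0.0479 to 0.370; with 1 heart left out it stayed called only without blank 26, blank 32, PLCβ1b 8 or PLCβ1b 10. Pcdh17 was above 0 in all 27 and called in 20, and was not called with limma (FDR 0.329 and 0.241) or by edgeR without blank 30 (FDR 0.105), blank 34 (0.125), PLCβ1b 4 (0.171), PLCβ1b 6 (0.130) or PLCβ1b 17 (0.146). With limma its log2 fold change was 0.41 at a pseudocount of 0.1 and 0.18 at a pseudocount of 1, which exceeds its level, beside 0.46 in edgeR. In both PLC groups against blank these were 0.30 and 0.13, beside 0.34. There Pcdh17 was called in 10 of 26. As a description, since it was picked with its values known, Bcl6b had an edgeR FDR of 0.166 in PLCβ1a (0.0416 to 0.429 over 27 alternatives, below 0.1 in 3) and 0.488 in PLCβ1b against blank (0.247 to 0.744, below 0.1 in 0), and of 0.149 in both PLC groups against blank (below 0.1 in 4 of 26). DESeq2 gave Lmo2 and Pcdh17 no FDR in PLCβ1a against blank.

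Genes called in PLCβ1b against blank numbered 12 (7 higher), and 24 with DESeq2 (16 higher), 26 with no filter, 6 with only the groups compared (2 higher), 5 with limma at either pseudocount (1 higher), 21 with the index as covariate, 6 at an FDR below 0.05, and 4 (without blank 34 or PLCβ1b 4) to 17 (without blank 26) with 1 heart left out. In PLCβ1a against blank there were 10, and 33 with DESeq2, which gave an FDR to 5613 genes there, 32 with no filter, 6 with only the groups compared, 6 with limma at either pseudocount (1 higher), 17 with the robust fit, 28 with the covariate, 2 at an FDR below 0.05, and 2 (without blank 30, among others) to 20 (without PLCβ1a 13) with 1 heart left out. In PLCβ1b against PLCβ1a there was 1, and 2 with no filter, with only the groups compared, with mitochondrial genes left out and with the covariate, 0 with limma and with the robust fit, and 1 to 2 with 1 heart left out. In both PLC groups against blank there were 24, and 55 with DESeq2, 60 with no filter, 6 with limma, 40 with the robust fit, 10 at an FDR below 0.05, and 9 (without blank 30) to 55 (without PLCβ1b 16) with 1 heart left out. The causes were not tested.

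Small differences changed sign. Pecam1 was at 0.049 in PLCβ1b and 0.0043 in PLCβ1a against blank without blank 30, the ends of ranges that begin at -0.068 and -0.11. Kdr in PLCβ1b against blank ran from -0.0090 to 0.093 with 1 heart left out, and in PLCβ1a from -0.030 to 0.061, with 0.0078 under the covariate. Tie1 in PLCβ1b ran from -0.0048 to 0.043 and was -0.016 and -0.014 with limma, and in PLCβ1a it was -0.015 and -0.014 with limma. Tek in PLCβ1a ran from -0.037 to 0.037 and was -0.0040 and -0.0034 with limma. Thbd in both PLC groups against blank was -0.22 with DESeq2, no filter and the robust fit, and ran from -0.26 to -0.18 with 1 heart left out. The index difference in PLCβ1b was -0.0071 on the FPKM scale and -0.0011 to 0.027 with 1 heart left out, and in PLCβ1a 0.019 as the log2 of the summed CPM and -0.021 to 0.0046 with 1 heart left out.

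Relations to the index on the FPKM scale were 0.0656 for Pcdh17, 0.531 for Pecam1, 0.587 for Kdr, 0.435 for Flt1, 0.731 for Tie1 and 0.626 for Tek, where Pecam1 and Flt1 lost their call and Kdr, Tie1 and Tek gained one. With group means kept they were 0.562 for Cdh5 and 0.525 for Flt1, and both genes lost their call. With 1 heart left out they ran from -0.191 to 0.0659 for Bcl6b, 0.588 to 0.744 for Cdh5, 0.485 to 0.706 for Flt1 and 0.374 to 0.647 for Thbd. With 1 heart left out Cdh5 also lost its call without PLCβ1a 21 or PLCβ1b 6, and Flt1 in 11 of 18. Thbd gained one without PLCβ1a 9 (adjusted p = 0.0271, permutation). The causes were not tested. Lmo2 and Pcdh17 had 73 and 57 counts in their lowest hearts.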
